A study of Arabidopsis thaliana with 8 samples.

Results

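NTRC (AT2G41680), AT3G52960 and APS4 (AT5G43780) are 3 nuclear genes for enzymes of plastid redox control and sulfate assimilation. They were taken from the 692 rows of an array table whose platform annotation names exactly 1 gene, and each was on 1 such row. The plants were Arabidopsis thaliana (thale cress), wild type in the Columbia-0 background that most laboratories use, aged 4 weeks or 1 week. Total RNA of 4 samples per age, numbered 1 to 4 at both ages, was hybridised, and the table gives 1 signal in arbitrary units for each of 3439 rows and 8 samples. The labels give no organ, no growth condition and no word on whether samples are separate plants, pools or repeats of 1 extract. The p-values therefore reflect the spread among these samples alone, and that spread may be technical.

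Chloroplasts keep many enzymes active by reducing their disulfides with thioredoxins, and they remove peroxides with peroxiredoxins. NTRC is a plastid protein that joins an NADPH-thioredoxin reductase and a thioredoxin in 1 chain, and it is known for reducing the plastid 2-Cys peroxiredoxins with NADPH, also in the dark. AT3G52960 encodes the plastid peroxiredoxin IIE (PRXIIE), an enzyme that reduces peroxides. APS4 encodes an ATP sulfurylase, the enzyme that activates sulfate with ATP at the entry of the pathway to cysteine and glutathione.

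The summed signal of a sample ran from 3070 to 3286 at 4 weeks and from 3176 to 3374 at 1 week, and the share of rows listed at 0 ran from 11.3% to 13.6%. None of the 3 genes was at 0 in any sample. Of the listed markers, 5 of 12 green tissue genes were on single-gene rows, and their summed signal ran from 28.6 to 41.1 at 4 weeks and from 27.1 to 48.8 at 1 week. That sum mainly follows PSBW, with a mean of 21.8 at 4 weeks and 21.2 at 1 week, and LHCB1.5. Only PSAN among them passed the test described next (log2 difference 0.39, SE 0.13, limma adjusted p = 0.0389), and it missed the threshold without normalization (limma adjusted p = 0.176) and after median centring (0.239). PSBW, PSBY and PSB27 were also higher at 4 weeks, by 0.60, 1.09 and 0.89 on the log2 scale (limma adjusted p = 0.159, 0.314 and 0.146). For PSBW the difference was 0.088 without normalization and 0.038 after median centring. LHCB1.5, for a light-harvesting protein, had 6.68 ± 1.34 at 4 weeks and 12.9 ± 2.85 at 1 week (SD, n = 4 each). Its log2 difference was −0.46 (limma adjusted p = 0.135), but it passed without normalization (−0.94, adjusted p = 0.00901) and after median centring (−0.99, adjusted p = 0.0080). No root marker and no flower or seed marker was on a single-gene row, and the part of organ makeup in the results was not tested. In such bulk samples, fewer cells of a type and less RNA per cell cannot be told apart.

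The comparison asked how far the level of each transcript differed between 4-week-old and 1-week-old plants. None of the 3 genes passed the test: 0 of 3 had an adjusted p under 0.05 in limma, which fits every row on the quantile-normalized log2 scale with Benjamini-Hochberg adjustment, while 45.7% of the 2924 tested rows did. At an unadjusted p under 0.05 the count was also 0 of 3, against 53.4% of the rows. The exact permutation test of each row had 0 of 3 at an unadjusted p under 0.05, against 45.7% of 2814 rows, and after adjustment it called no row of the array. The smallest p that its 70 assignments allow is 0.0286, which adjustment raised to 0.0626. Even a row at that limit thus missed the threshold. A p that misses the threshold does not show that levels were equal, so the 95% confidence interval of each difference is given below. It lay within 1.5-fold either way for 2 of the 3 genes, NTRC and APS4, and for 16.2% of all tested rows. For NTRC it stayed within this bound in 17 of 18 other settings of the fit, the exception being averaged samples (from −0.62 to 0.63 on the log2 scale). For APS4 it did so in 8 of 17. Those where it did not include the fits without normalization and with median centring, whose upper limits of 0.60 and 0.59 on the log2 scale lay just past the bound. Others lay further past it, such as samples 3 and 4 alone (from −0.87 to 0.68) and averaged samples (from −0.58 to 0.77).

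NTRC had nearly equal signals at both ages. Its deposited signals were 0.357, 0.426, 0.539 and 0.471 in 4-week samples 1 to 4, against 0.422, 0.353, 0.426 and 0.504 in 1-week samples 1 to 4. The ages overlapped over most of their range, and the highest and the next to lowest of the 8 values were both 4-week samples. The mean was 0.448 ± 0.0769 at 4 weeks and 0.426 ± 0.0615 at 1 week (SD, n = 4 each). The log2 difference, 4 weeks minus 1 week, was 0.0052 (SE 0.16, limma adjusted p = 0.981), and its 95% confidence interval corresponds to a 4-week level between 0.784-fold and 1.29-fold of the 1-week level. Of all tested rows, 0.581% had a smaller absolute log2 difference, and the median absolute difference over all rows was 0.52. Its residual SD within ages, 0.21 on the log2 scale, was below the median of 0.27 over all tested rows.

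**Figure D1:**
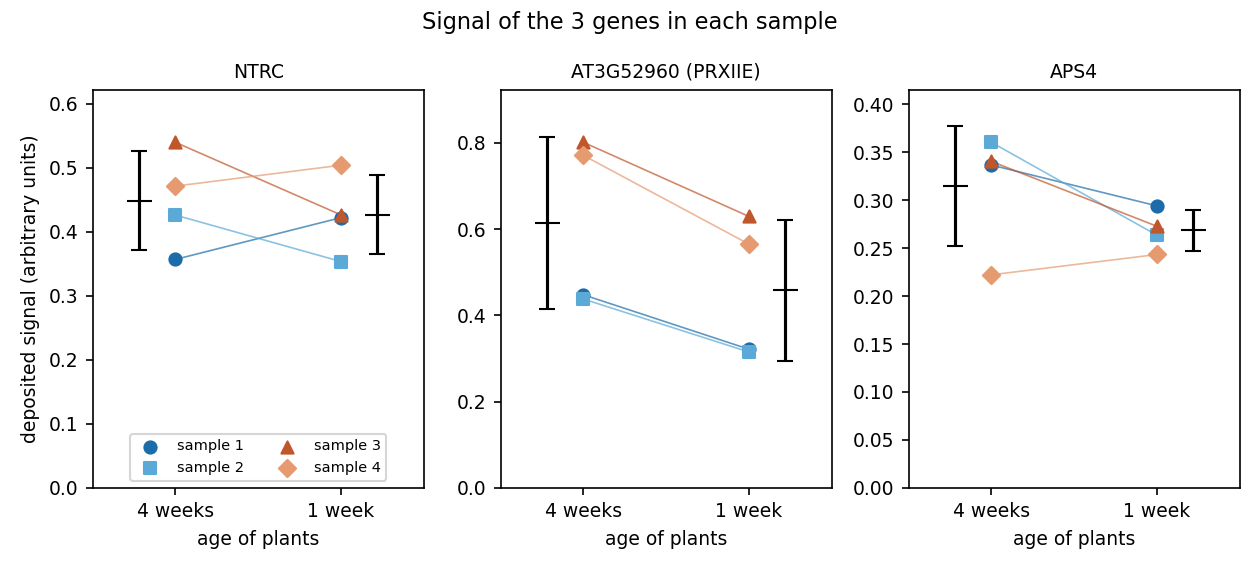
Deposited signal in arbitrary units (vertical axes, each from 0) of NTRC, AT3G52960 and APS4 in 4-week and 1-week plants. Points are samples, thin lines join samples of the same number, and black bars show the mean ± SD of the 4 samples of an age. Samples 3 and 4 of AT3G52960 lie above samples 1 and 2 at both ages, while 4-week sample 4 of APS4, at 0.222, lies below all other values of that gene.

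The number of a sample did not order NTRC in the same way at both ages. Set against the 1-week sample of the same number, the 4-week signal of NTRC was 1.21-fold and 1.27-fold in numbers 2 and 3 and 0.845-fold and 0.935-fold in numbers 1 and 4. It was thus higher at 4 weeks in 2 of 4 numbers. With the sample number as a block the log2 difference was the same, with an SE of 0.14 (limma adjusted p = 0.975).

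AT3G52960, the peroxiredoxin gene, had the largest age difference of the 3 and also the largest spread. Its deposited signals were 0.448, 0.438, 0.801 and 0.771 in 4-week samples 1 to 4, against 0.321, 0.315, 0.629 and 0.565 in 1-week samples 1 to 4. Samples 3 and 4 were high and samples 1 and 2 low at both ages, so that the ages overlapped: 4-week samples 1 and 2 lay below 1-week samples 3 and 4. The mean was 0.614 ± 0.199 at 4 weeks and 0.458 ± 0.163 at 1 week (SD, n = 4 each). Without a block the log2 difference was 0.41 (SE 0.30, limma adjusted p = 0.291), and its 95% confidence interval ran from 0.823-fold to 2.16-fold. Of all tested rows, 81.0% had a smaller residual SD than the 0.48 of AT3G52960, and 42.0% had a smaller absolute difference.

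Within each sample number AT3G52960 was higher at 4 weeks, by a similar factor. The 4-week signal was 1.39-fold that of the 1-week sample in numbers 1 and 2, 1.27-fold in number 3 and 1.36-fold in number 4. On the normalized log2 scale these 4 differences ran from 0.34 to 0.46, with an SD of 0.058, and 2.20% of the 2814 rows measured in all samples had a smaller SD of this kind (median 0.26). The direction alone is common, since 39.9% of these rows were higher at 4 weeks in all 4 numbers. With the sample number as a block, AT3G52960 passed the test (log2 difference 0.41, SE 0.090, limma adjusted p = 0.0130), with a 95% confidence interval from 1.14-fold to 1.56-fold. In that fit 1 of the 3 genes passed, against 56.6% of all tested rows. The labels do not say what a shared number means, and the pairing by number was taken from the data.

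The call also depended on how the likeness of samples 1 and 2, and of samples 3 and 4, was treated. In samples 1 and 2 alone the log2 difference of AT3G52960 was 0.46 (SE 0.093, limma adjusted p = 0.0283), and in samples 3 and 4 alone it was 0.37 (SE 0.12, limma adjusted p = 0.0736). With both members of each such pair of samples averaged and the pair as a block it was 0.41 (SE 0.20, limma adjusted p = 0.159). That fit has few values per row, so its SE rests mainly on the spread that limma shares over all rows. The SE was 0.204 for AT3G52960, 0.204 for NTRC and 0.218 for APS4. The missed threshold in that fit therefore says little about the spread of AT3G52960 itself. Across the alternatives computed, its adjusted p lay between 0.0130 and 0.532 and its log2 difference between 0.26 and 0.59, with the 4-week level higher in each.

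**Figure D2:**
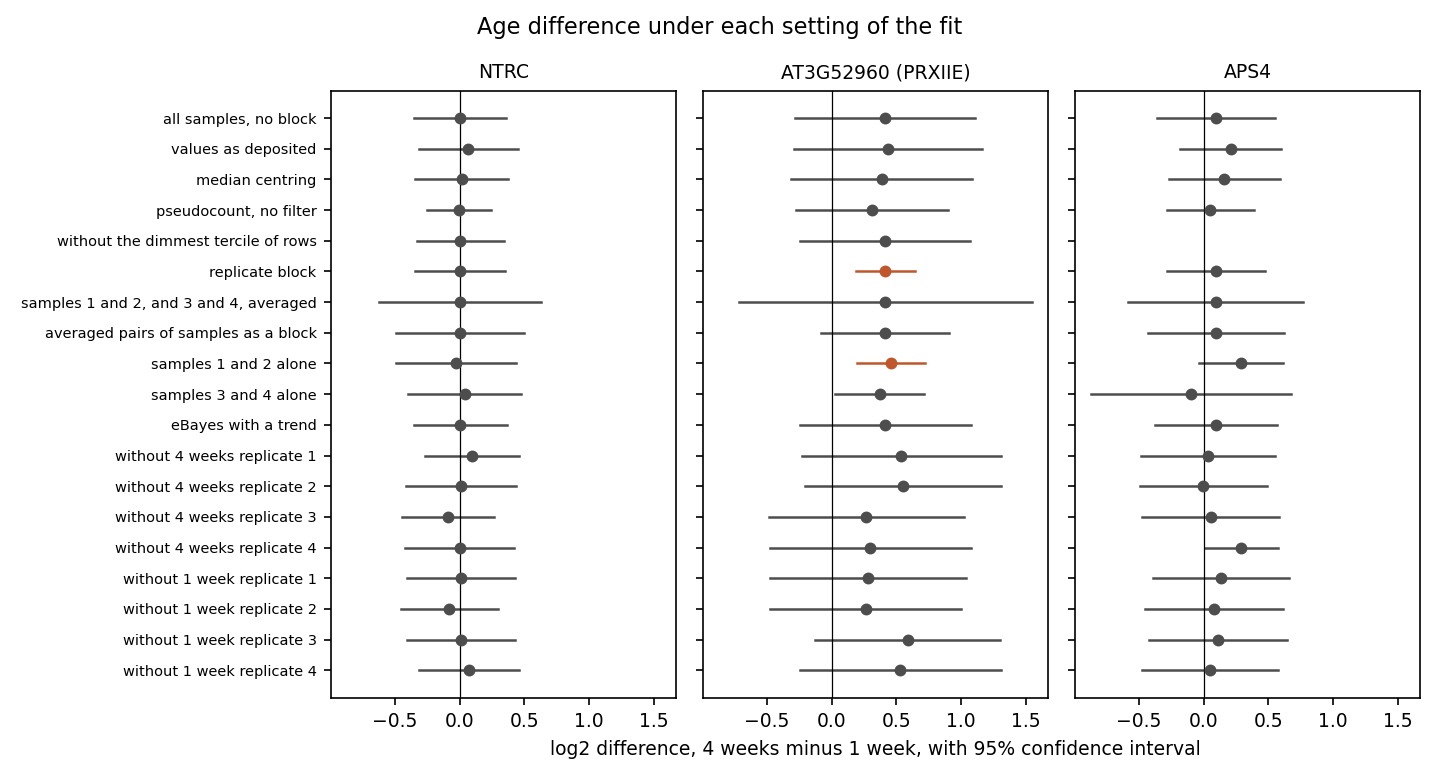
Log2 difference in normalized signal, 4 weeks minus 1 week (horizontal axes), of the 3 genes under each setting of the limma fit (rows). Points are the fitted differences, lines their 95% confidence intervals, and orange marks an adjusted p under 0.05, which occurred for AT3G52960 in the fit with the sample number as a block and in samples 1 and 2 alone. In these 2 fits, 1656 and 1254 of the 2924 tested rows passed. APS4 has no value without the dimmest tercile of rows because its row belongs to that tercile.

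The gap between samples 3 and 4 and samples 1 and 2 was larger for AT3G52960 than its age difference. The mean signal of samples 3 and 4 was 1.78-fold that of samples 1 and 2 at 4 weeks and 1.88-fold at 1 week. This gap held 78.7% of the variance of its 8 normalized log2 values, the age held 20.0% and the rest was 1.39%. For NTRC the gap held 52.4% of the variance, the age 0.0201% and the rest 47.6%, and for APS4 the shares were 29.5%, 3.37% and 67.1%. Over the 2814 rows measured in all samples the median shares were 13.4% for the gap, 53.0% for the age and 18.9% for the rest. The gap itself was 0.82 on the log2 scale for AT3G52960, larger in absolute size than in 90.9% of these rows, 0.26 for NTRC and −0.28 for APS4, with a median absolute gap of 0.27. No label accounts for it.

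APS4, the ATP sulfurylase gene, had slightly higher signals in 3 of the 4 samples of 4-week plants. Its deposited signals were 0.337, 0.360, 0.341 and 0.222 in 4-week samples 1 to 4, against 0.294, 0.264, 0.273 and 0.243 in 1-week samples 1 to 4. The first 3 of the 4-week samples lay above every 1-week sample, and 4-week sample 4 lay below every one. The mean was 0.315 ± 0.0627 at 4 weeks and 0.268 ± 0.0210 at 1 week (SD, n = 4 each). The log2 difference was 0.094 (SE 0.20, limma adjusted p = 0.718), with a 95% confidence interval from 0.780-fold to 1.46-fold, and 8.89% of all tested rows had a smaller absolute difference. Without normalization it was 0.21 (limma adjusted p = 0.338), and with median centring 0.16 (0.509).

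Single samples moved this difference of APS4. Without 4-week sample 4 the log2 difference was 0.29 (SE 0.12, limma adjusted p = 0.0915), and without 4-week sample 2 it was −0.0014 (limma adjusted p = 0.997). In samples 1 and 2 alone it was 0.29 (limma adjusted p = 0.118) and in samples 3 and 4 alone −0.098 (limma adjusted p = 0.789), and the difference between these was not tested. With the sample number as a block it was 0.094 (limma adjusted p = 0.610). The APS4 row was dim: 22.4% of the tested rows had a lower mean signal, against 41.1% for NTRC and 52.6% for AT3G52960, which describes the brightness of the rows on the array and not the relative abundance of the transcripts.

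**Figure D3:**
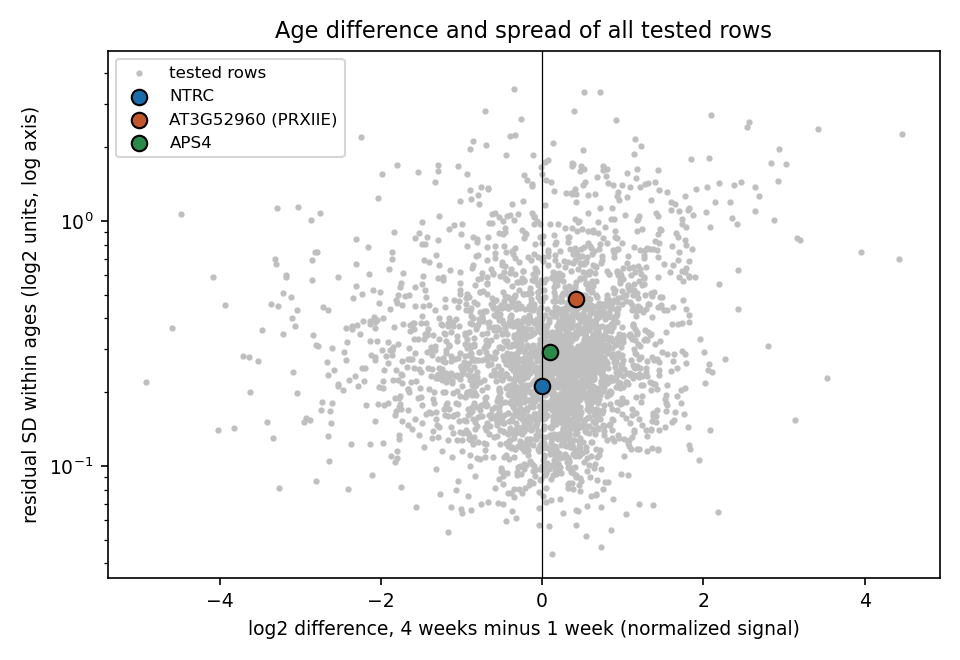
Log2 difference in normalized signal, 4 weeks minus 1 week (horizontal axis), and residual SD within ages in log2 units (vertical log axis) of the 2924 tested rows, in grey, with the 3 genes in colour. NTRC, at 0.0052, and APS4, at 0.094, lie near the zero line, and AT3G52960 has the largest spread of the 3, with a residual SD of 0.48.

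Whether the 3 genes changed unequally was tested on the ratio of their signals within each array, which does not depend on how an array was scaled. The log2 ratio of AT3G52960 to NTRC was 0.41 ± 0.29 at 4 weeks and 0.042 ± 0.42 at 1 week (SD, n = 4 each), a difference of 0.37 (exact two-sided permutation test, p = 0.2, adjusted over 3 pairs p = 0.6). That of APS4 to NTRC was −0.52 ± 0.45 at 4 weeks and −0.66 ± 0.28 at 1 week, a difference of 0.14 (exact permutation p = 0.629, adjusted p = 0.629). That of AT3G52960 to APS4 was 0.93 ± 0.71 at 4 weeks and 0.70 ± 0.59 at 1 week, a difference of 0.23 (exact permutation p = 0.514, adjusted p = 0.629). No unequal change was thus shown at this sample size, where the smallest p that 70 assignments allow is 0.0286. After adjustment over the 3 pairs, a single pair at that limit would still miss the threshold. The test could therefore not have called a single pair alone, and its result does not show that the genes changed equally. Within sample numbers, the ratio of AT3G52960 to NTRC and that of AT3G52960 to APS4 were both higher at 4 weeks in 4 of 4 numbers. The exact sign permutation test gave p = 0.125 for each, the smallest that 16 assignments allow, and 0.188 adjusted over the 3 pairs.

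The lists of thioredoxin, peroxiredoxin, antioxidant and sulfur genes and of thioredoxin-regulated enzymes held 135 genes, of which 9 were on single-gene rows, the 3 above and 6 others. Another 11 were only on rows that name several genes and are not described. For sulfate assimilation APS4 was the only 1 of 12 listed genes, and for sulfate uptake and the synthesis of cysteine and glutathione none of 27 was on a single-gene row. Of the 6 other genes 5 could be tested: 3 rose, 1 fell and 1 did not pass, while 25.3% of all tested rows rose and 20.4% fell. Their median log2 difference was 0.50, against 0.16 over all tested rows. This median is the value of AT2G04700, the gene that did not pass, and with a pseudocount its difference was −0.074.

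In the thioredoxin and peroxiredoxin systems, SRX rose and the other gene did not pass. SRX encodes sulfiredoxin, which restores overoxidised 2-Cys peroxiredoxins. Its signals were 0.498, 0.475, 0.332 and 0.339 in 4-week samples 1 to 4, against 0.278, 0.252, 0.127 and 0.135 in 1-week samples 1 to 4. The ages did not overlap, as in 46.7% of all tested rows when signals at 0 are left out. Samples 1 and 2 were the higher ones at both ages, the reverse of AT3G52960. The log2 difference was 0.99 (SE 0.29, limma adjusted p = 0.0251). It missed the threshold without 4-week sample 1 (limma adjusted p = 0.0655) or 2 (0.0643), without 1-week sample 3 (0.0621) or 4 (0.0641), with a pseudocount (0.0542), and with samples 1 and 2, and samples 3 and 4, averaged (0.185). AT2G04700 encodes the catalytic subunit of ferredoxin-thioredoxin reductase (FTRB), which passes electrons from ferredoxin to thioredoxins. It had signals of 0.148, 0.176, 0.278 and a listed 0 in 4-week samples 1 to 4, against 0.139, 0.117, 0.176 and 0.0692 in 1-week samples 1 to 4. Its ages overlapped, and its log2 difference, with the 0 left out, was 0.50 (SE 0.33, limma adjusted p = 0.252). It was 0.26 without 4-week sample 3 and 0.28 without 1-week sample 4 or with the number as a block.

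Among thioredoxin-regulated plastid enzymes, 2 rose and 1 fell. AT5G58330, for NADP-dependent malate dehydrogenase, which exports reducing power from the chloroplast, fell: its mean signal was 0.463 ± 0.0209 at 4 weeks and 0.786 ± 0.0732 at 1 week (SD, n = 4 each). The log2 difference was −0.81 (SE 0.11, limma adjusted p = 0.000605), and it was lower at 4 weeks in 4 of 4 numbers. With samples 1 and 2, and samples 3 and 4, averaged, its limma adjusted p was 0.0696. PRK, for the Calvin cycle enzyme phosphoribulokinase, was higher at 4 weeks by a log2 value of 1.14 (SE 0.12; adjusted p = 0.000163 in limma). CHLM, for a methyltransferase of chlorophyll synthesis, was higher by 0.38 (SE 0.10; adjusted p = 0.0156 in limma). The call for CHLM was lost with those samples averaged (limma adjusted p = 0.264), with the pair of averaged samples as a block (0.186) and in samples 3 and 4 alone (0.0862). SBPASE, for the Calvin cycle enzyme sedoheptulose bisphosphatase, was listed at 0 in all 4 samples of 1-week plants and in 2 of 4 at 4 weeks, and was not tested.

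**Figure D4:**
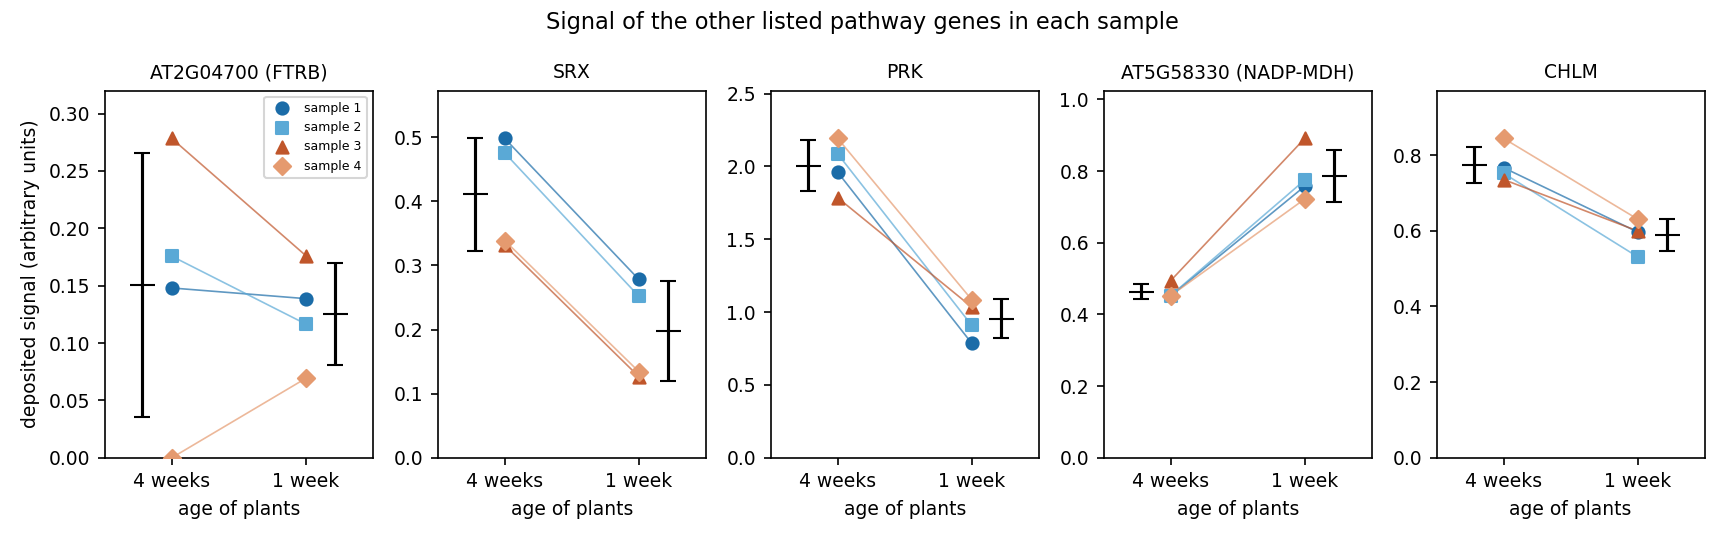
Deposited signal in arbitrary units (vertical axes, each from 0) of 5 other listed genes in 4-week and 1-week plants, with points for samples, thin lines between samples of the same number and black bars for the mean ± SD of 4 samples. SRX, PRK and CHLM have every 4-week sample above every 1-week sample, AT5G58330 has every 4-week sample below, and AT2G04700 overlaps.

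The single-gene rows most like each gene were ranked by Pearson's r with it over the 8 normalized log2 values, as a description over 563 other rows measured in all samples. These values share arrays and the gap between samples 3 and 4 and samples 1 and 2. Nearest to AT3G52960 were AT3G17550 (r = 0.99), PSBY (r = 0.988), for a small photosystem II protein, and AT5G22340 (r = 0.966). PSBY is also 1 of the 5 green tissue markers. Its signals were 0.435, 0.612, 2.66 and 2.14 in 4-week samples 1 to 4, against 0.199, 0.242, 1.45 and 1.24 in 1-week samples 1 to 4, so that samples 3 and 4 were the high ones at both ages, as for AT3G52960. Of the 5 markers, 2 (PSBY and PSB27) had samples 3 and 4 above samples 1 and 2 at both ages, 2 (LHCB1.5 and PSBW) had them below, and PSAN was mixed. The part of tissue makeup in the gap of AT3G52960 was not tested. Nearest to APS4 were AT3G58570 (r = 0.928), the MADS-box gene AGL103 (r = 0.899) and AT1G11800 (r = 0.841). NTRC was matched less closely, by AT3G12000 (r = 0.865), DI21 (r = 0.837) and AT5G01860 (r = 0.798).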

How the data were processed

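The values deposited by the authors are array intensities, linear and never below 0; their scanning, background correction and scaling are not given in the sources read. Rows were named from the platform annotation, updated through gene numbers with a reference table of the TAIR10.1 assembly, which held 690 of the 692 single-gene rows. Another 870 rows name several genes and 1877 are unnamed here. Ages and numbers came from the sample titles.

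After taking log2, with a 0 treated as missing, arrays were quantile normalized. Rows needed 3 measured samples in each age, and 2 rows at the ceiling of the table in all samples were left out. All 2924 remaining rows were fitted as 4 weeks minus 1 week by limma 3.58.1 (lmFit, then eBayes; R 4.3.3), with Benjamini-Hochberg adjustment over all of them and a threshold of 0.05. The eBayes step draws the variance of each row towards that of all rows, so an SE is not the spread of 1 gene alone. With the sample number as a block, AT3G52960 had a residual SD of 0.041 and an SE of 0.090. The fit without a block was tried on simulated data in which samples were drawn independently. That trial does not cover the likeness of samples by number or by pair. Signals printed with an SD are deposited values. The number of arrays limits the precision.

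Samples of the same number deviated together from the means of their ages (r = 0.425 to 0.527 in 4 pairs). Each r was over 0.1, and the number was used as a block in an alternative fit and in the comparisons within numbers. The main fit had no block. The pairing by number comes from the data, not the labels. Samples of another number within 1 and 2, or within 3 and 4, also correlated, at 0.180 to 0.396.

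Members, lists, tests and alternatives were chosen with earlier results of these data known. Named are the 3 genes, every listed gene on a single-gene row, and the 3 single-gene rows most like each gene. Alternatives were 2 other scalings, a pseudocount of 0.133 without a filter, leaving out dim rows, blocks, averaged or separate pairs of samples, a trended variance, an exact permutation test and leaving out each sample.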

Additional observations from a re-analysis of the deposited data

Results flagged for a closer look

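In groups of 4 samples, a sample was picked out where its gap to the nearest other exceeded the 95% critical share of the group's range given by Dixon, which chance does in about 1 of 20 groups. Of 32 groups of values examined, on the deposited and the normalized scale, 2 were picked out, both at 4 weeks on the deposited scale and neither of them NTRC, AT3G52960 or APS4. Sample 4 of APS4 at 4 weeks, at 0.222, missed being picked out only in the fourth decimal, with a gap of 0.8287 of the range on the deposited scale. AT5G58330 had 0.494 in sample 3, above the other samples of that age, which lay close together at 0.452 and 0.453, and its normalized values were not picked out. SBPASE had 0.0394 in sample 4 and was listed at 0 or near it in the others.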

How the results depend on the processing

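NTRC and APS4 missed the threshold under every alternative that tested them. The log2 difference of NTRC, near 0, changed sign with a pseudocount (−0.0068) and in samples 1 and 2 alone (−0.029), and ran from −0.090 to 0.097 without any 1 sample. That of APS4 changed sign in samples 3 and 4 alone (−0.098) and ran from −0.0014 to 0.29 without any 1 sample; its row is in the dimmest tercile, so leaving that tercile out gave no value. AT3G52960 passed only with the replicate block (0.41) and in samples 1 and 2 alone (0.46), and ran from 0.26 to 0.59 without any 1 sample. Of the 2924 tested rows, 1656 passed with that block and 1254 in samples 1 and 2 alone. AT2G04700 changed sign with a pseudocount (−0.074). The block changed no other call of the 3 genes or the other listed genes. For the ratios it could change none, since the smallest p of the exact sign permutation test, 0.125, misses the threshold. Without any 1 sample the difference of the log2 ratio ran from 0.22 to 0.54 for AT3G52960 over NTRC, from −0.0038 to 0.33 for APS4 over NTRC and from −0.060 to 0.45 for AT3G52960 over APS4. The count of 1337 rows past the threshold was 400 after samples 1 and 2, and likewise 3 and 4, were averaged to 2 values per age, and ran from 1074 to 1287 without any 1 sample. The exact permutation test called 0 rows, with 1285 at an unadjusted p under 0.05, since its smallest p of 0.0286 became 0.0626 after adjustment. The median log2 difference of all rows was 0.16, and 0.023 with the pseudocount, which keeps rows at 0. The cause of the changes of sign was not tested.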
